A study of Mus musculus with 24 samples.

Results

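The expression of 9 genes of transforming growth factor beta (TGF-beta) signaling was followed in mouse C2C12 myoblasts in which a subunit of the SWI/SNF chromatin remodelers was knocked down (KD) and to which copper (Cu) or zinc (Zn) was added. The genes were listed by name and were not selected by a threshold: the ligand genes *Tgfb1*, *Tgfb2*, *Tgfb3* and *Inhba*, the receptor genes *Tgfbr1*, *Tgfbr2* and *Tgfbr3*, and the intracellular genes *Smad3* and *Smad7*. They are 9 of the 55291 gene symbols with counts, and all 9 passed the filter on low counts in each of the 23 comparisons made. The list was drawn up with earlier results of these data known.

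TGF-beta ligands are secreted in a latent form, and once released they bind the type II receptor Tgfbr2, which recruits and phosphorylates the type I receptor Tgfbr1. The type III receptor Tgfbr3 (betaglycan) is a co-receptor that presents ligand, and the activated type I receptor phosphorylates Smad3, which enters the nucleus with Smad4 and regulates transcription. *Smad7* encodes an inhibitory SMAD that is itself a target of the pathway and acts on the type I receptor. *Inhba* encodes the subunit of activin A, a related ligand that signals through the activin receptors to the same SMADs. In cultured myoblasts, TGF-beta and activin are known for holding back differentiation.

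C2C12 is an established mouse myoblast line. The methods describe stable pools selected with puromycin after lentiviral transduction of an shRNA, either a scrambled sequence (scr) or one against *Baf180* (the PBAF complex), *Baf250a* (the BAF complex) or *Brd9* (the ncBAF complex), so the controls carried the vector and the selection too. The shRNA of the sequenced cells was not named, and the labels name no second shRNA or clone of a KD. Each of the 4 cell lines was grown in proliferation medium with no added metal (NT), with 100 µM CuSO4 or with 50 µM ZnSO4, in 2 biological replicates, which gives 12 groups and 24 libraries. The sample labels speak of primary myoblasts and of a Lipofectamine knockdown, and the study's description is used here. Ribosomal RNA was removed and the libraries were strand-specific.

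The counts per library ranged from 495778 to 75179394 (median 22158430). The lowest total belongs to replicate 2 of *Baf250a* KD with Zn, in which the 9 genes had between 17 and 233 counts. The tests of the 9 genes that use it, and the ranges and correlations it moves, are also given without it. Exceptions are the values after the GC correction described with *Tgfb2* and the marker levels below, which include it. Each targeted transcript was lower in its own KD without metal, with log2 fold changes of -0.76 for *Pbrm1* (which encodes Baf180), -1.53 for *Arid1a* (which encodes Baf250a) and -0.76 for *Brd9*. Of the 7 myoblast markers, *Myod1*, *Myf5*, *Des*, *Cdh15*, *Itga7* and *Chrna1* were present in every library, and *Pax7* lay between 0 and 5.41 CPM (counts scaled to the library size). Their summed level was 3437 to 5025 CPM in scr cells, 2180.1 to 2390.3 in *Baf180* KD, 1575 to 1721 in *Baf250a* KD and 2346 to 2869.6 in *Brd9* KD cells. The 5 markers of differentiating myocytes summed to 59.5 to 93.4, 108 to 156, 51.0 to 66.1 and 26.6 to 33.7 CPM in the same order. Single markers did not all follow the sums. By median in *Baf250a* KD cells, *Myod1* was above scr (134 against 92.7 CPM) and the other myoblast markers were below it. *Myog* (9.60 against 5.04), *Myh3* (8.72 against 4.94) and *Mymk* (4.23 against 3.24) were above scr there. *Acta1* (31.6 against 56.1) and *Ckm* (0.898 against 1.90) were below it. In *Baf180* KD cells *Myod1* (109.5) and *Pax7* (3.07 against 1.43) were above scr, and the other myoblast markers were below it. *Acta1* was level with scr there (56.2 against 56.1), and the other myocyte markers were above it. In *Brd9* KD cells *Pax7* (3.53) was above scr, and the other markers of both lists were below it. These lists move with the cell lines, as the 9 genes do, and their part in the differences of the 9 genes was not tested. Markers of epithelial cells and neurons were at or near 0 in every library (sums of at most 0.753 and 0.0637 CPM), as were the leukocyte genes *Ptprc* and *Adgre1* (at most 0.206 and 0.0675 CPM) and the endothelial gene *Cdh5* (at most 0.154 CPM). The other leukocyte marker, *Cd68*, was at 2.96 to 6.22 CPM over all libraries, and the endothelial *Kdr* was at 3.36 to 5.48 CPM in scr cells and at most 1.69 CPM in the KD cells.

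As counted, the responses to Zn of *Inhba*, *Tgfb2* and *Tgfbr1* were lower in *Baf180* and *Baf250a* KD cells than in scr cells. The promoters of these 3 genes are therefore shown. After the GC correction, the differences of *Tgfbr1* (0.02 and 0.17) and that of *Inhba* in *Baf250a* KD cells (-0.53) were not called. In *Brd9* KD cells none of the 3 genes was called for such a difference. The sequences are from RefSeq on GRCm38.p6 and run from 250 bases before to 50 bases after the annotated start, 5′ to 3′ on the strand of the gene. *Inhba* is at chr13:16011601-16011900 on the plus strand, *Tgfb2* at chr1:186705940-186706239 on the minus strand and *Tgfbr1* at chr4:47352972-47353271 on the plus strand. Capitals mark a SMAD box, the letters CAGACA on either strand.
Inhba: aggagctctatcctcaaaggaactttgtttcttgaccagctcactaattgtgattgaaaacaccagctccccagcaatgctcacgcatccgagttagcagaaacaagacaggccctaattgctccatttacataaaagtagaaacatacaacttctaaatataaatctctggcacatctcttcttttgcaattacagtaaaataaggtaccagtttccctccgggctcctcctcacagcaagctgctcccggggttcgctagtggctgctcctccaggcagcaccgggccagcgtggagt
Tgfb2: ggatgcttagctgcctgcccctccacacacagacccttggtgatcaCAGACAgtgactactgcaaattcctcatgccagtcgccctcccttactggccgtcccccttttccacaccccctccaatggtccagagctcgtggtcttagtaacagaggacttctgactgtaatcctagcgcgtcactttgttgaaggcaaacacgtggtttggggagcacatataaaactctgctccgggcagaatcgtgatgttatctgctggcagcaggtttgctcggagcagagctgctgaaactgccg
Tgfbr1: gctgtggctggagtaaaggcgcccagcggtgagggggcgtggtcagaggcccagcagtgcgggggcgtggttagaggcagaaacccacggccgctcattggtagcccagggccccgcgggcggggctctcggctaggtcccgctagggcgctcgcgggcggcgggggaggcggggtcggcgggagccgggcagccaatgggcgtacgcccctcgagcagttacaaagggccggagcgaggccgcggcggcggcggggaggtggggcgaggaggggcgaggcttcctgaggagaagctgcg
The *Tgfb2* window held 1 SMAD box, at position -204 from the start, and the windows of *Inhba* and *Tgfbr1* held none. A SMAD box was found in 21% of the 32851 promoters of the same length. None of the 3 windows held an AP-1 site (TGACTCA or TGAGTCA, in 5.20% of promoters), a cAMP response element (TGACGTCA, in 1.79%) or the core of a metal response element (TGCGCNC or TGCACNC, in 25.7%), all searched on both strands. Promoter sequence was matched for 6 of the 9 genes, of which *Smad3* held 2 metal response element cores, *Tgfb1* and *Tgfbr2* held no match of the 4 motifs, and a second annotated start of *Tgfbr1* held 1 SMAD box. A match describes letters in a window and is not evidence of binding. The GC content of the windows was 47.7% for *Inhba*, 54.3% for *Tgfb2* and 74.7% for *Tgfbr1*.

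In untreated scr cells, levels compared between genes per kilobase of exon put *Inhba* first, at a mean of 31.5 CPM per kb, followed by *Tgfb3* (23.3), *Tgfbr2* (15.9), *Smad3* (12.7), *Tgfb1* (11.8), *Smad7* (8.80), *Tgfb2* (7.31), *Tgfbr1* (3.05) and *Tgfbr3* (1.41 CPM per kb). The co-receptor gene was thus the least abundant and the activin gene the most abundant of the 9. In untreated *Baf250a* KD cells *Tgfb3* came first at 120.3 CPM per kb, ahead of *Tgfbr2* (51.3) and *Inhba* (41.4). Over the 24 libraries, differences between the 4 cell lines held most of the variance of log2 CPM of each gene, from 56.4% for *Tgfbr1* and 76.2% for *Inhba* to 98.5% for *Tgfbr3*. Differences between treatments within a cell line held 26.8% for *Tgfbr1*, 17.9% for *Inhba*, 10.3% for *Tgfb2* and at most 7.88% (*Smad3*) for the other genes. Without the shallow library these shares were 59.6%, 81.9% and 98.9% between lines and 26.0%, 13.7%, 6.28% and 8.81% between treatments.

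**Figure D1:**
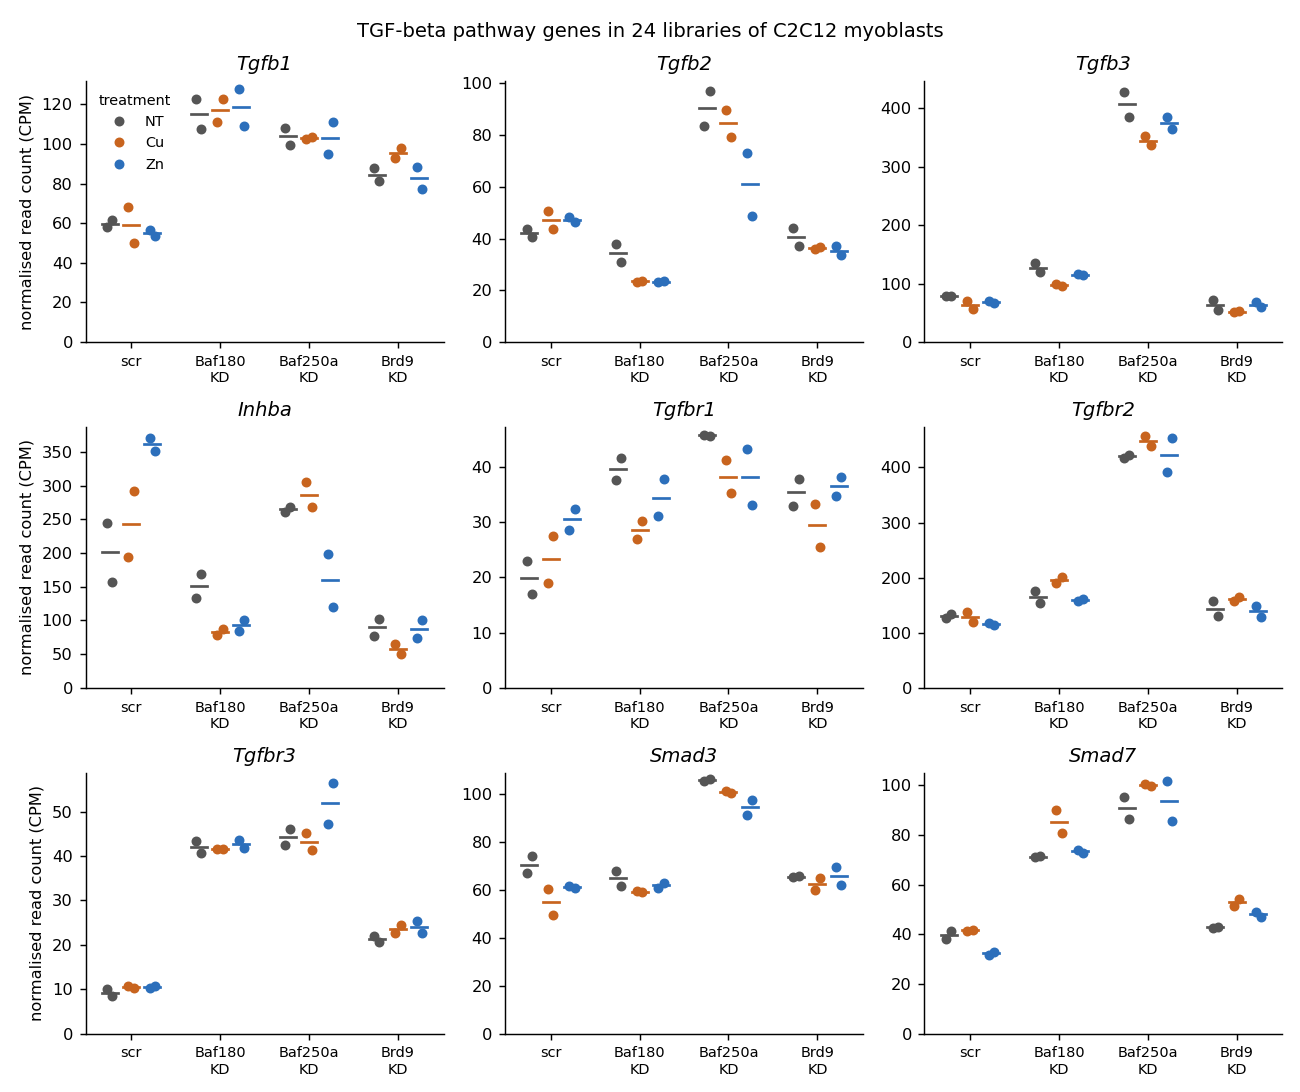
Normalised read count (CPM, linear axis from 0) of the 9 genes in each of the 24 libraries, by cell line and treatment; points are libraries and bars are means of 2. The 6 *Tgfbr3* libraries of scr cells lie between 8.41 and 10.8 CPM, below every KD library.

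Without added metal, all 9 genes were higher in *Baf250a* KD cells than in scr cells, 6 were higher and none lower in *Baf180* KD cells, and in *Brd9* KD cells 3 were higher and 1, *Inhba*, was lower (edgeR's quasi-likelihood test, adjusted p under 0.05 over all genes tested, 2 libraries against 2). *Tgfb1*, *Tgfbr1* and *Tgfbr3* were higher in all 3 KDs. The largest rises were in *Tgfb3* in *Baf250a* KD cells (5.17-fold) and in *Tgfbr3* in *Baf250a* and *Baf180* KD cells (4.83-fold and 4.63-fold). Of all genes tested, 57.8% were called in *Baf250a* KD cells (28.9% higher), 41.0% in *Baf180* KD cells (21.7% higher) and 29.2% in *Brd9* KD cells (15.1% higher). The median log2 fold change of the 9 genes was 1.19, 0.71 and 0.12 in these KDs, beside 0.00, 0.03 and 0.01 over all genes tested. The count in *Baf250a* KD cells was 8 by DESeq2, with 24 libraries in the fit and after a correction for GC content, each losing *Inhba*, and that in *Brd9* KD cells was 2 without replicate 2 of that KD. The same 2 scr libraries serve all 3 comparisons, and in bulk RNA fewer cells of a type and less RNA per cell cannot be told apart.

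**Figure D2:**
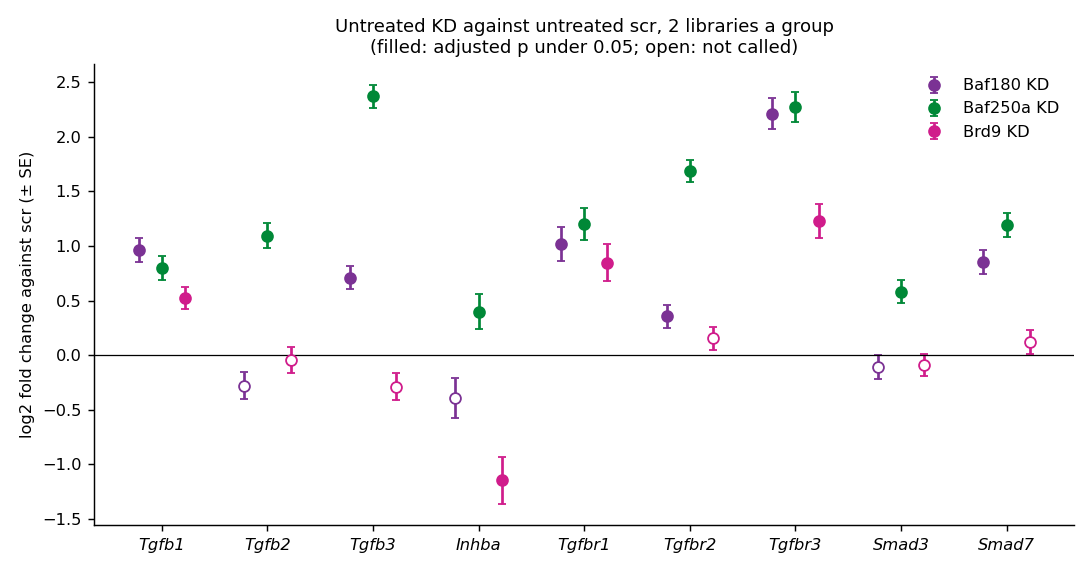
Log2 fold change of each gene in untreated KD cells against untreated scr cells (points, bars are ± SE from edgeR; 2 libraries a group), filled where the adjusted p was under 0.05. *Inhba* lies at -1.15 in *Brd9* KD cells, and *Tgfb3* at 2.37 in *Baf250a* KD cells.

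Among the ligands, *Tgfb1* (chr7:25687002-25705077, GRCm38), which encodes the best studied TGF-beta, was at 57.9 and 61.5 CPM in the 2 untreated scr libraries. It was at 123 and 107 CPM in *Baf180* KD, 108 and 99.5 in *Baf250a* KD and 87.8 and 81.3 in *Brd9* KD cells. Every KD library lay above both scr libraries. The log2 fold changes were 0.96 (edgeR adjusted p = 3.91e-05, SE 0.11), 0.80 (edgeR adjusted p = 3.53e-05, SE 0.11) and 0.52 (edgeR adjusted p = 0.00811, SE 0.10). With Cu the scr libraries were at 68.4 and 49.8 CPM and with Zn at 56.3 and 53.5, and each KD was again higher, so that *Tgfb1* was called higher in all 9 comparisons of a KD with scr, with log2 fold changes of 0.52 to 1.05. The call in *Brd9* KD cells was lost without replicate 1 or 2 of the KD, both untreated (0.47, adjusted p = 0.0793 and 0.54, adjusted p = 0.0701) and with Cu (0.71, adjusted p = 0.136 and 0.63, adjusted p = 0.236, all by edgeR).

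*Tgfb2* (chr1:186622792-186705989), the ligand that depends most on the co-receptor, was the one of the 9 genes that was called in opposite directions in KDs under each metal. Untreated libraries were at 43.8 and 40.8 CPM in scr, 38.0 and 31.0 in *Baf180* KD, 83.6 and 97.1 in *Baf250a* KD and 43.9 and 37.1 in *Brd9* KD cells. *Baf250a* KD libraries were above all others, with a log2 fold change of 1.09 (edgeR adjusted p = 4.82e-06, SE 0.12). In *Baf180* KD cells it was -0.28 (edgeR adjusted p = 0.0946, SE 0.12), a difference that was called without scr replicate 2, -0.34 (adjusted p = 0.0339), and after an adjustment of each library for its trend with the GC content and length of transcripts (the GC correction), -0.36 (edgeR adjusted p = 0.0180). With Cu, *Baf180* KD libraries were at 23.3 and 23.8 CPM against 50.6 and 43.8 in scr, a log2 fold change of -1.01 (edgeR adjusted p = 3.39e-04, SE 0.14). The *Baf250a* KD libraries, at 89.5 and 79.4 CPM, were higher than scr by 0.87 (edgeR adjusted p = 0.00115, SE 0.12).

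With Zn, *Tgfb2* in *Baf180* KD libraries was at 23.3 and 23.5 CPM, *Brd9* KD libraries were at 37.0 and 33.6 and scr libraries at 48.3 and 46.3. Both KDs lay below scr without overlap, with log2 fold changes of -1.07 (edgeR adjusted p = 9.40e-06, SE 0.08) and -0.45 (edgeR adjusted p = 0.00441, SE 0.08). The *Baf250a* KD libraries with Zn were at 73.2 and 48.6 CPM, the second from 25 counts. The log2 fold change against scr was 0.57 (edgeR adjusted p = 4.21e-07, SE 0.09), and it was 0.59 (still called) without this shallow library and 0.01 (adjusted p = 0.983) without the deeper one. The call was also lost without scr replicate 1 or 2 (0.47, adjusted p = 0.303 and 0.42, adjusted p = 0.366, edgeR).

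*Tgfb3* (chr12:86056745-86079041) was at 78.7 and 78.8 CPM in untreated scr cells, 135 and 119.7 in *Baf180* KD, 428 and 386 in *Baf250a* KD and 71.6 and 55.8 in *Brd9* KD cells. *Baf250a* KD stood far above the other lines, and *Baf180* KD came next. The log2 fold changes were 0.71 (edgeR adjusted p = 2.93e-04, SE 0.11) in *Baf180* KD and 2.37 (edgeR adjusted p = 1.51e-09, SE 0.11) in *Baf250a* KD cells. In *Brd9* KD cells it was -0.29 (edgeR adjusted p = 0.108, SE 0.12), with both KD libraries below both scr libraries. Over all treatments, the 6 scr libraries ran from 57.3 to 78.8 (median 70.1) CPM, the *Brd9* KD libraries from 50.9 to 71.6 (median 57.9), the *Baf180* KD libraries from 95.9 to 135 (median 116) and the *Baf250a* KD libraries from 338 to 428 (median 376). *Brd9* KD and scr therefore overlapped, and the other steps of this order did not. The rise in *Baf180* KD cells with Cu, 0.61 (edgeR adjusted p = 0.00687, SE 0.13), was not called without replicate 1 or 2 of that KD (0.59, adjusted p = 0.0912 and 0.62, adjusted p = 0.0574, edgeR).

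*Inhba* (chr13:16011851-16031621) differed between the replicates of scr cells, both untreated and with Cu. Its untreated libraries were at 245 and 157 CPM in scr, 133 and 169 in *Baf180* KD, 261 and 269 in *Baf250a* KD and 77.6 and 102 in *Brd9* KD cells. *Brd9* KD lay below scr and *Baf250a* KD above it, and *Baf180* KD overlapped with scr. In *Brd9* KD cells the log2 fold change was -1.15 (edgeR adjusted p = 0.00740, SE 0.22). In *Baf250a* KD cells it was 0.40 (edgeR adjusted p = 0.0494, SE 0.16), and it reversed to -0.10 (edgeR adjusted p = 0.414) after the GC correction. That call was also lost without scr replicate 2, 0.10 (adjusted p = 0.381), without *Baf250a* KD replicate 1 or 2 (0.40, adjusted p = 0.191 and 0.37, adjusted p = 0.204, edgeR). In *Baf180* KD cells the log2 fold change was -0.39 (edgeR adjusted p = 0.111, SE 0.18), -0.68 (called) without scr replicate 2 and -0.80 (edgeR adjusted p = 8.41e-04) after the correction.

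Under both metals *Inhba* was lower in *Baf180* and *Brd9* KD cells than in scr cells given the same metal. With Cu the libraries were at 194 and 293 CPM in scr, 78.6 and 87.0 in *Baf180* KD and 65.1 and 49.7 in *Brd9* KD cells, and the log2 fold changes were -1.57 (edgeR adjusted p = 1.14e-04, SE 0.18) and -2.10 (edgeR adjusted p = 0.00132, SE 0.22). With Zn they were at 371 and 352 CPM in scr, 84.3 and 101 in *Baf180* KD and 73.3 and 101 in *Brd9* KD cells, with log2 fold changes of -2.02 (edgeR adjusted p = 8.52e-07, SE 0.09) and -2.08 (edgeR adjusted p = 5.12e-05, SE 0.15). The groups did not overlap, and after the GC correction these 4 values were -1.34, -2.07, -1.62 and -1.91, all still called. With Cu the *Baf250a* KD libraries, at 305 and 268 CPM, overlapped with scr, and the log2 fold change was 0.26 (edgeR adjusted p = 0.316, SE 0.19), or 0.58 (called) without scr replicate 2. With Zn the *Baf250a* KD libraries were at 199 and 121 CPM, the second from 62 counts. There the log2 fold change was -1.01 (edgeR adjusted p = 4.91e-10, SE 0.13), and -0.90 (still called) without this shallow library.

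Among the receptors, *Tgfbr3* (chr5:107106570-107289629), the co-receptor gene, was higher in every KD library than in every scr library. The untreated libraries were at 10.01 and 8.41 CPM in scr, 43.3 and 40.7 in *Baf180* KD, 42.5 and 46.0 in *Baf250a* KD and 21.9 and 20.6 in *Brd9* KD cells. The log2 fold changes were 2.21 (edgeR adjusted p = 3.62e-07, SE 0.14), 2.27 (edgeR adjusted p = 2.60e-08, SE 0.14) and 1.23 (edgeR adjusted p = 0.00128, SE 0.15). It was called higher in all 9 comparisons of a KD with scr, with log2 fold changes between 1.15 and 2.27, and in each of these the call held when any single library was left out and under each of the other processing settings tried. Over the 3 treatments, scr libraries ran from 8.41 to 10.8 (median 10.3) CPM, *Brd9* KD libraries from 20.6 to 25.3 (median 22.7), *Baf180* KD libraries from 40.7 to 43.6 (median 41.8) and *Baf250a* KD libraries from 41.3 to 56.4 (median 45.6). The highest *Baf250a* KD value is from the shallow library (29 counts) and the range ends at 47.3 CPM without it. *Baf180* and *Baf250a* KD overlapped either way, and *Brd9* KD stood apart from scr below and from both of them above.

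*Tgfbr1* (chr4:47353222-47414931), the type I receptor gene, was at 23.0 and 16.9 CPM in untreated scr cells. It was at 37.6 and 41.6 CPM in *Baf180* KD, 45.7 and 45.5 in *Baf250a* KD and 32.9 and 37.7 in *Brd9* KD cells, above scr in every library. The log2 fold changes were 1.01 (edgeR adjusted p = 3.83e-04, SE 0.16), 1.20 (edgeR adjusted p = 1.44e-05, SE 0.14) and 0.85 (edgeR adjusted p = 0.00982, SE 0.17). The last was 0.70 (adjusted p = 0.0941) without *Brd9* KD replicate 2. With the GC correction the 3 values shrank to 0.60 (edgeR adjusted p = 0.00130), 0.70 (edgeR adjusted p = 9.51e-05) and 0.41 (edgeR adjusted p = 0.0217). *Tgfbr1* has the lowest GC content of the 9 transcripts, 41.0%, against a median of 49.2% over the genes tested in scr cells.

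Under the metals, the log2 fold changes of *Tgfbr1* as counted were nearer to 0 than without metal, which did not hold throughout after the GC correction. With Cu, scr libraries were at 19.0 and 27.4 CPM and *Baf180*, *Baf250a* and *Brd9* KD libraries at 26.8 and 30.2, 41.2 and 35.2 and 33.3 and 25.4. Only *Baf250a* KD did not overlap with scr, with a log2 fold change of 0.73 (edgeR adjusted p = 0.0155, SE 0.18) that was not called without its replicate 1, 0.62 (adjusted p = 0.0996). With Zn, scr libraries were at 28.5 and 32.4 CPM, and the *Baf180* KD (31.0 and 37.8) libraries overlapped with them. The log2 fold change of 0.44 (edgeR adjusted p = 4.07e-04, SE 0.11) in *Baf250a* KD cells was lost without replicate 1 of that KD, 0.07 (adjusted p = 0.950), and without scr replicate 1 or 2 (0.28, adjusted p = 0.625 and 0.49, adjusted p = 0.351). Without the shallow replicate 2, from 17 counts, it was 0.44 (still called). In *Baf180* and *Brd9* KD cells with Zn, values of 0.12 (edgeR adjusted p = 0.435, SE 0.12) and 0.22 (edgeR adjusted p = 0.170, SE 0.10) became 0.54 (edgeR adjusted p = 4.68e-04) and 0.42 (edgeR adjusted p = 0.00516) after the GC correction. It took the value of *Baf250a* KD cells with Zn to 0.86 (edgeR adjusted p = 1.65e-08) and that of *Baf180* KD cells with Cu from 0.28 to 0.51 (edgeR adjusted p = 0.0208).

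*Tgfbr2* (chr9:116084293-116175360), the type II receptor gene, was at 127 and 134 CPM in untreated scr cells, 176 and 154 in *Baf180* KD, 418 and 423 in *Baf250a* KD and 157 and 130.5 in *Brd9* KD cells. *Baf250a* KD stood apart, with a log2 fold change of 1.69 (edgeR adjusted p = 2.05e-08, SE 0.10), followed by 1.83 (edgeR adjusted p = 1.77e-05, SE 0.12) with Cu and 1.82 (edgeR adjusted p = 5.20e-23, SE 0.11) with Zn, the last being 1.71 without the shallow library. The log2 fold changes and SEs with Cu and Zn were alike, so the far smaller p with Zn is not read as stronger evidence. The rise in *Baf180* KD cells was smaller, 0.36 (edgeR adjusted p = 0.0181, SE 0.10) untreated. It was not called without *Baf180* KD replicate 1, 0.23 (adjusted p = 0.270), or replicate 2, 0.40 (adjusted p = 0.0831). With Cu it was 0.60 (edgeR adjusted p = 0.00494, SE 0.12), and 0.55 (adjusted p = 0.0696) without replicate 2 of the KD, and with Zn it was 0.40 (edgeR adjusted p = 6.70e-04, SE 0.06). *Brd9* KD cells differed from scr by 0.16 untreated, 0.32 with Cu and 0.23 with Zn on the log2 scale (edgeR adjusted p = 0.289, 0.0989 and 0.0583), and the value with Cu was called after the GC correction (0.32, edgeR adjusted p = 0.0421).

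Of the intracellular genes, *Smad3* (chr9:63646767-63757994) was at 66.9 and 74.0 CPM in untreated scr cells, 67.9 and 61.5 in *Baf180* KD, 105 and 106 in *Baf250a* KD and 65.3 and 65.6 in *Brd9* KD cells. Over all treatments the *Baf250a* KD libraries (91.3 to 106, median 101 CPM) lay above the libraries of the other lines, whose ranges overlapped: 49.5 to 74.0 (median 61.2) in scr, 58.9 to 67.9 (median 61.1) in *Baf180* KD and 59.8 to 69.4 (median 65.0) CPM in *Brd9* KD cells. *Smad3* was called in 3 of the 9 comparisons of a KD with scr, all in *Baf250a* KD cells, with log2 fold changes of 0.58 (edgeR adjusted p = 4.34e-04, SE 0.11) untreated, 0.90 (edgeR adjusted p = 9.37e-04, SE 0.12) with Cu and 0.57 (edgeR adjusted p = 1.21e-07, SE 0.09) with Zn (0.54 without the shallow library). The last was not called without scr replicate 1 or 2 (0.59, adjusted p = 0.138 and 0.60, adjusted p = 0.139, edgeR). Untreated *Baf180* and *Brd9* KD cells differed from scr by -0.11 (edgeR adjusted p = 0.457, SE 0.11) and -0.09 (edgeR adjusted p = 0.549, SE 0.10), and after the GC correction *Baf180* KD cells with Zn were called lower, -0.27 (edgeR adjusted p = 0.00583).

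*Smad7* (on chromosome 18) was at 38.3 and 41.3 CPM in untreated scr cells, 71.0 and 71.5 in *Baf180* KD, 95.2 and 86.4 in *Baf250a* KD and 42.6 and 43.0 in *Brd9* KD cells. The *Baf180* and *Baf250a* KD libraries were far above scr, with log2 fold changes of 0.86 (edgeR adjusted p = 1.04e-04, SE 0.11) and 1.19 (edgeR adjusted p = 1.39e-06, SE 0.11). In *Brd9* KD cells the log2 fold change was 0.12 (edgeR adjusted p = 0.423, SE 0.11). Over the 3 treatments the order of the lines by median was scr (31.7 to 41.9, median 39.8 CPM), *Brd9* KD (42.6 to 54.2, median 48.1), *Baf180* KD (71.0 to 90.0, median 73.5) and *Baf250a* KD (85.6 to 102, median 97.5). The lowest *Baf250a* KD value is from the shallow library (44 counts) and is 86.4 CPM without it. *Baf180* and *Baf250a* KD overlapped either way and the lower steps did not. *Smad7* was called higher in 7 of the 9 comparisons, including *Brd9* KD with Zn, 0.54 (edgeR adjusted p = 0.00169, SE 0.08), and *Brd9* KD with Cu had a log2 fold change of 0.33 (edgeR adjusted p = 0.0931, SE 0.11), or 0.31 (adjusted p = 0.0392) without scr replicate 1 and 0.34 (adjusted p = 0.0496) without scr replicate 2.

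The calls over the 9 genes under metal were as follows. With Cu, 7 genes were called in *Baf180* KD cells (5 higher, and *Tgfb2* and *Inhba* lower), 8 in *Baf250a* KD cells, all higher, and 3 in *Brd9* KD cells (*Tgfb1* and *Tgfbr3* higher, *Inhba* lower). Of all genes tested, 24.9%, 41.2% and 12.2% were called in these comparisons. The count in *Brd9* KD cells was 6 without scr replicate 1 and 7 without scr replicate 2. With Zn, 7 genes were called in *Baf180* KD cells (5 higher, *Tgfb2* and *Inhba* lower), 9 in *Baf250a* KD cells (8 higher, *Inhba* lower) and 5 in *Brd9* KD cells (*Tgfb1*, *Tgfbr3* and *Smad7* higher, *Tgfb2* and *Inhba* lower), beside 49.9%, 57.5% and 23.2% of all genes. The count in *Baf250a* KD cells with Zn was 9 without the shallow library, 7 without replicate 1 of the KD, 6 without scr replicate 1 or 2, 7 with a replicate block and 6 by DESeq2. All genes called there fell from 8304 to 3256, 2804, 2614, 4781 and 2975 in these settings, in the order replicate 1 of the KD, scr replicates 1 and 2, block and DESeq2. The log2 fold changes there were 0.80 for *Tgfb1*, 2.48 for *Tgfb3*, 2.15 for *Tgfbr3* and 1.61 for *Smad7*, and 0.75, 2.47, 2.11 and 1.61 without it.

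Beyond the 9 genes, 86 other genes of the TGF-beta superfamily pathway were listed by role, and 72 to 76 of them were tested in the untreated comparisons. Of 76 in *Baf250a* KD cells 50 were called higher and 11 lower, in *Baf180* KD cells 35 of 74 higher and 9 lower, and in *Brd9* KD cells 19 of 72 higher and 9 lower. These are 80.3%, 59.5% and 38.9% of the listed genes tested, beside 57.8%, 41.0% and 29.2% of all genes. The median log2 fold changes of the listed genes were 0.98, 0.25 and 0.23. No test was made on the lists.

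The extracellular antagonists, which bind ligands outside the cell, were called more often than the other lists in each untreated KD. In *Baf180* and in *Baf250a* KD cells 7 of 8 tested were higher and 1, *Nog*, was lower, and in *Brd9* KD cells 4 of 7 were higher and *Nog* was lower. *Nog*, which encodes the BMP antagonist noggin, was in *Baf180* KD cells at 0.493 and 0.823 CPM against 11.2 and 10.7 CPM in scr, a log2 fold change of -4.01 (edgeR adjusted p = 7.83e-07, SE 0.28). It was -2.47 (edgeR adjusted p = 5.33e-07, SE 0.21) in *Baf250a* KD and -2.03 (edgeR adjusted p = 3.97e-04, SE 0.20) in *Brd9* KD cells. *Grem1*, which encodes the BMP antagonist gremlin, was among the genes that rose most in *Brd9* KD cells, at 302 and 395 CPM against 104 and 62.7 in scr (2.09, edgeR adjusted p = 7.39e-04, SE 0.23). Of the 11 genes on the ligand list, 1 of 6 tested was higher and 1 lower in *Baf180* KD cells. In *Baf250a* KD cells 4 of 7 were higher and 1 lower, and in *Brd9* KD cells 1 of 6 was higher and 2 lower. These are 33.3%, 71.4% and 50% of the list, beside 41.0%, 57.8% and 29.2% of all genes. *Bmp4*, which encodes a bone morphogenetic protein, was in *Baf180* KD cells at 52.1 and 45.3 CPM against 2.49 and 2.14 CPM in scr, a log2 fold change of 4.42 (edgeR adjusted p = 9.93e-09, SE 0.17). In *Baf250a* KD cells it was at 120.0 and 105 CPM (5.61, edgeR adjusted p = 4.77e-11, SE 0.16) and in *Brd9* KD cells at 17.7 and 15.2 CPM (2.86, edgeR adjusted p = 9.96e-05, SE 0.20).

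*Inhbb* and *Gdf15*, also ligand genes, were among the lowest in 1 KD each. *Inhbb*, which encodes the subunit of activin B, was in *Brd9* KD cells at 78.3 and 77.6 CPM against 186 and 208 CPM in scr, a log2 fold change of -1.32 (edgeR adjusted p = 1.25e-04, SE 0.10). It was -0.25 (edgeR adjusted p = 0.0829, SE 0.11) in *Baf180* KD and higher, 0.79 (edgeR adjusted p = 4.54e-05, SE 0.11), in *Baf250a* KD cells. *Gdf15* fell by 1.11 on the log2 scale in *Baf250a* KD cells, from 24.8 and 30.8 CPM in scr to 13.1 and 12.7 (SE 0.14, edgeR adjusted p = 2.70e-05), and was -1.40 (edgeR adjusted p = 4.34e-05, SE 0.16) in *Baf180* KD and -0.58 (edgeR adjusted p = 0.0201, SE 0.14) in *Brd9* KD cells. Of the genes for latency, storage and activation of TGF-beta, 7 of 11 were higher in *Baf180* KD, 6 in *Baf250a* KD and 2 in *Brd9* KD cells, and 1, 2 and 1 were lower. *Itgb6*, which encodes an integrin subunit that activates latent TGF-beta, was in *Baf180* KD cells at 2.55 and 2.26 CPM against 10.8 and 8.03 CPM in scr (-1.94, edgeR adjusted p = 6.75e-05, SE 0.24). Of the other receptors, 4 of 9, 6 of 9 and 3 of 8 were higher in *Baf180*, *Baf250a* and *Brd9* KD cells and none was lower. These are 44.4%, 66.7% and 37.5% of the receptors tested. Of the latency list, 72.7%, 72.7% and 27.3% were called in the same order. Both stand beside 41.0%, 57.8% and 29.2% of all genes.

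Of 20 other SMADs and regulators, 5 were higher and 2 lower in *Baf180* KD, 9 higher and 5 lower in *Baf250a* KD, and 2 higher and 1 lower in *Brd9* KD cells. These are 35.0%, 70.0% and 15% of the list, beside 41.0%, 57.8% and 29.2% of all genes. Known targets of the pathway were higher for 18 of 21 and lower for 2 in *Baf250a* KD cells, higher for 11 of 20 and lower for 4 in *Baf180* KD cells, and higher for 7 of 20 and lower for 4 in *Brd9* KD cells. *Col1a1*, a collagen gene among these targets, was in *Baf250a* KD cells at 2221 and 2260.2 CPM against 43.6 and 44.1 CPM in scr, a log2 fold change of 5.67 (edgeR adjusted p = 1.23e-11, SE 0.12). In *Baf180* KD cells it was at 361 and 371 CPM (3.08, edgeR adjusted p = 7.21e-09, SE 0.11).

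**Figure D3:**
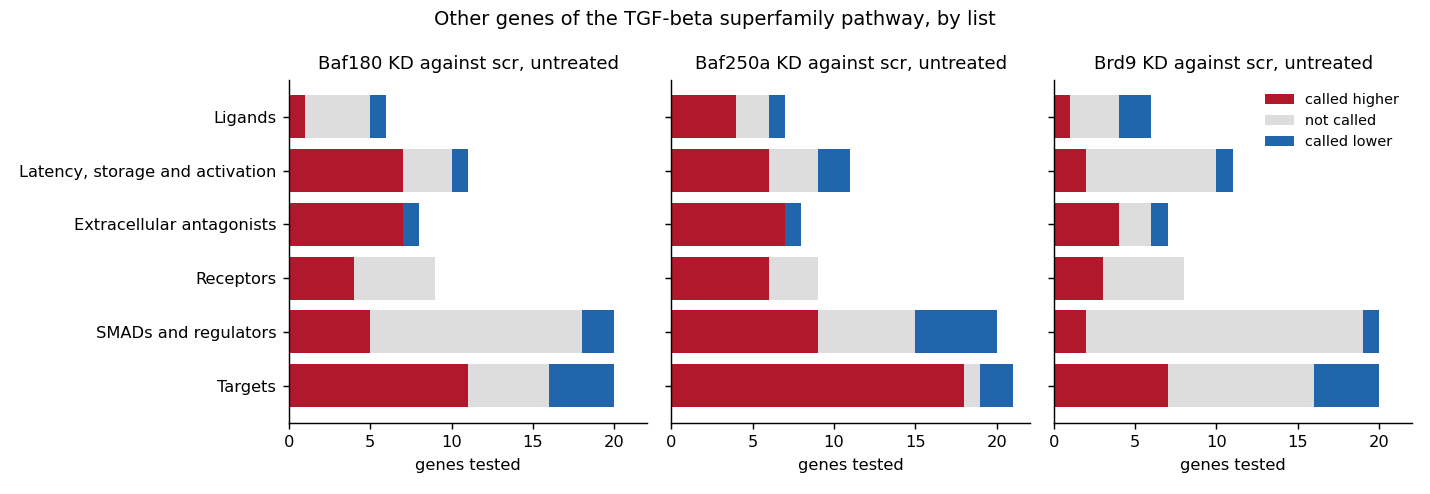
Number of other pathway genes tested in each list (horizontal axis) for each untreated KD against scr, split into those called higher, not called and called lower (edgeR adjusted p under 0.05). For *Baf250a* KD, 18 of 21 targets and 7 of 8 extracellular antagonists are called higher.

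The second question of the design was how each cell line responded to metal. In scr cells, none of the 9 genes was called with Cu (edgeR; 2 at an unadjusted p under 0.05, 0 by DESeq2), beside 0.0333% of all genes, and 1, *Inhba*, was called with Zn, beside 17.6%. In *Baf180* KD cells 4 genes, *Tgfb2*, *Tgfb3*, *Tgfbr1* and *Inhba*, were lower with Cu, beside 13.8% of all genes, and with Zn none was called (2 at an unadjusted p under 0.05, 2 by DESeq2), beside 0.0197%. In *Baf250a* KD cells none was called with Cu (2 at an unadjusted p under 0.05, 0 by DESeq2), beside 1.27%, and *Tgfb2* and *Inhba* were lower with Zn, beside 15.9%. In *Brd9* KD cells none was called with Cu (3 at an unadjusted p under 0.05, 0 by DESeq2) or with Zn (0 and 0), beside 0.274% and 0.0334% of all genes. The responses to Cu and Zn of a line share their untreated libraries. The shares over all genes depended on the setting. In scr cells with Zn, 2645 genes were called, 14 with a replicate block, 57 after the GC correction and 3248 by DESeq2. In *Baf180* KD cells with Cu these numbers were 2097, 3892, 1006 and 2308. The first also fell without scr NT replicate 2 or either Zn library, and the second without Cu replicate 1 or either NT library.

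*Inhba* in scr cells with Zn went from 245 and 157 to 371 and 352 CPM, and both Zn libraries lay above both untreated ones, a log2 fold change of 0.93 (edgeR adjusted p = 0.0456, SE 0.26). After the GC correction it was 0.35 (edgeR adjusted p = 0.195), and it was not called without scr NT replicate 2, 0.62 (adjusted p = 0.279), Zn replicate 1, 0.90 (adjusted p = 0.158), or Zn replicate 2, 0.96 (adjusted p = 0.202). *Tgfbr1* in the same cells had a log2 fold change of 0.71 (edgeR adjusted p = 0.0640, SE 0.22), which the correction took to 0.10 (edgeR adjusted p = 0.672).

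In *Baf180* KD cells with Cu, *Inhba* fell from 133 and 169 to 78.6 and 87.0 CPM, a log2 fold change of -0.91 (edgeR adjusted p = 0.00688, SE 0.13). *Tgfb2* went from 38.0 and 31.0 to 23.3 and 23.8 CPM, -0.58 (edgeR adjusted p = 0.0124, SE 0.11), and *Tgfb3* from 135 and 119.7 to 98.9 and 95.9, -0.42 (edgeR adjusted p = 0.0127, SE 0.08). In all 3 genes the libraries did not overlap, and the calls held after the GC correction, at -0.52 (edgeR adjusted p = 0.00958), -0.54 (edgeR adjusted p = 0.0139) and -0.60 (edgeR adjusted p = 0.00166). *Tgfbr1* went from 37.6 and 41.6 to 26.8 and 30.2 CPM, -0.51 (edgeR adjusted p = 0.0287, SE 0.13), a call that was lost after the correction, -0.13 (edgeR adjusted p = 0.409). None of the 4 was called without Cu replicate 1 or without NT replicate 2, and *Tgfb2* and *Tgfb3* were not called without NT replicate 1.

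With Zn, *Baf180* KD cells had *Inhba* at 84.3 and 101 CPM and *Tgfb2* at 23.3 and 23.5 CPM, below the untreated libraries without overlap. The log2 fold changes, -0.72 (edgeR adjusted p = 0.192, SE 0.14) and -0.57 (edgeR adjusted p = 0.198, SE 0.11), did not pass the threshold, and both did with DESeq2, with no filter but 1 count, and with a replicate block. *Inhba* in *Baf250a* KD cells with Zn went from 261 and 269 to 199 and 121 CPM, -0.54 (edgeR adjusted p = 0.00389, SE 0.12), and the correction took it to -0.21 (edgeR adjusted p = 0.203). *Tgfb2* went from 83.6 and 97.1 to 73.2 and 48.6 CPM, -0.36 (edgeR adjusted p = 0.0398, SE 0.12). Without the shallow library the 2 values were -0.42 (adjusted p = 0.00123) and -0.31 (adjusted p = 0.0314). *Tgfb2* was not called without NT replicate 2, -0.26 (adjusted p = 0.355), or without Zn replicate 1, -0.87 (adjusted p = 0.112).

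The other pathway genes were called in response to metal at these shares: 22.9% beside 17.6% in scr cells with Zn, 16.2% beside 13.8% in *Baf180* KD cells with Cu, and 3.90% beside 1.27% with Cu and 19.5% beside 15.9% with Zn in *Baf250a* KD cells. None of the 70 tested was called in scr cells with Cu, beside 0.0333% of all genes. With Zn 10 were higher and 6 lower in scr cells, with *Nox4*, which encodes an NADPH oxidase, from 4.78 and 4.92 to 10.3 and 10.5 CPM (1.19, edgeR adjusted p = 0.0275, SE 0.14). *Tagln*, which encodes the actin-binding protein transgelin, was -0.80 (edgeR adjusted p = 0.0238, SE 0.09) there and 0.40 (edgeR adjusted p = 0.0196, SE 0.12) in *Baf250a* KD cells with Zn (0.54 without the shallow library), a difference of 1.26 (edgeR adjusted p = 1.31e-04, SE 0.17) between the responses. The test of the pathway genes in scr cells with Zn was not run again in the other settings. All genes called in that test fell from 2645 to 14 with a replicate block and 57 after the GC correction. In *Baf180* KD cells 3 of 74 were higher and 9 lower with Cu and none was called with Zn, beside 0.0197% of all genes with Zn. *Dcn*, which encodes decorin, a proteoglycan that binds TGF-beta, went there from 11.8 and 9.59 to 3.07 and 3.87 CPM with Cu (-1.65, edgeR adjusted p = 0.00360, SE 0.20), and *Gdf15* rose by 0.53 (edgeR adjusted p = 0.0328, SE 0.14). In *Baf250a* KD cells 1 of 77 was higher and 2 were lower with Cu, among them *Fst*, which encodes the activin antagonist follistatin (0.39, edgeR adjusted p = 0.0381, SE 0.10), and *Dcn* (-0.77, edgeR adjusted p = 0.00174, SE 0.13). Without the shallow library these counts were 3 and 3. With Zn 2 were higher and 13 lower in these cells, or 5 and 18 without the shallow library, and the integrin gene *Itgb8* had the lowest log2 fold change of those whose groups did not overlap, -0.81 (edgeR adjusted p = 8.61e-04, SE 0.15), or -0.80 without it. None of 73 was called in *Brd9* KD cells with either metal, beside 0.274% of all genes with Cu and 0.0334% with Zn.

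Whether a response differed between a KD and scr was tested as a difference of 2 log2 fold changes in a fit of all 24 libraries. With Cu, the response of *Baf180* KD cells differed from that of scr cells for *Tgfb2* and *Inhba*, both lower (2 of 9, beside 12.8% of all genes). With Zn, *Tgfb2*, *Tgfbr1* and *Inhba* had lower and *Smad7* a higher response than in scr cells, both in *Baf180* KD (4 of 9, beside 28.7%) and in *Baf250a* KD cells (4 of 9, beside 30.5%). In *Brd9* KD cells the response to Zn differed for *Smad7* (1 of 9, beside 11.1%). None of the 9 genes differed in the response to Cu of *Baf250a* KD (2 at an unadjusted p under 0.05, 0 by DESeq2, beside 0.0121% called of all genes) or *Brd9* KD cells (3 and 0, beside 0.0363%). After the GC correction, all genes called fell from 2116 to 348 for Cu in *Baf180* KD cells. For Zn they fell from 4742 to 1377 in *Baf180* KD and from 5036 to 2692 in *Baf250a* KD cells. Those for Cu also fell without *Baf180* KD Cu replicate 1 or scr NT replicate 2. Tests of the same metal share their scr libraries, and all 6 share the untreated ones. Without scr NT replicate 2 the counts were 0 for Cu in *Baf180* KD and 2, 1 and 0 for Zn in *Baf180*, *Baf250a* and *Brd9* KD cells. Without scr Zn replicate 2 those for Zn were 2, 1 and 0, and without scr Zn replicate 1 they were 2 in *Baf250a* KD and 0 in *Brd9* KD cells. Without scr NT replicate 1 they were 3 for Zn and 1 for Cu in *Brd9* KD cells, and the latter was also 1 without scr Cu replicate 1. For Cu in *Baf180* KD cells the count was 1 without scr Cu replicate 2. Of the KD libraries, *Baf180* KD Cu replicate 1 (0 genes without it) and NT replicates 1 and 2 (1 each) changed the count for Cu, and *Baf180* KD NT replicate 2 and Zn replicate 1 (2 each) that for Zn. For Zn, the count in *Baf250a* KD cells was 1 without NT replicate 2 and 2 without Zn replicate 1 or the shallow Zn replicate 2. For *Brd9* KD it was 0 without NT replicate 2 or Zn replicate 1 of the KD and 2 without Zn replicate 2.

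*Inhba* showed the largest differences of the 9. Its response to Zn was 0.93 in scr cells and -0.72 in *Baf180* KD, -0.54 in *Baf250a* KD and -0.05 in *Brd9* KD cells, each from the fit of that line. The difference from scr was -1.55 (edgeR adjusted p = 0.00180, SE 0.31) for *Baf180* KD, with a range of -1.91 to -1.27 and the call kept when any single library was left out, and -0.75 (edgeR adjusted p = 0.0213) after the GC correction. For *Baf250a* KD it was -1.43 (edgeR adjusted p = 0.00255, SE 0.32), -1.26 (adjusted p = 0.00840) without the shallow library, and it was -0.53 (edgeR adjusted p = 0.0780) after the correction. For *Brd9* KD it was -0.89 (edgeR adjusted p = 0.0654, SE 0.31), and it passed the threshold without scr NT replicate 1, -1.25 (adjusted p = 0.0140), *Brd9* KD NT replicate 1, -1.08 (adjusted p = 0.0489), or *Brd9* KD Zn replicate 2, -1.14 (adjusted p = 0.0356). With Cu the difference was -1.15 (edgeR adjusted p = 0.0222, SE 0.31) for *Baf180* KD and -0.52 (edgeR adjusted p = 0.141) after the correction. That call was lost without *Baf180* KD Cu replicate 1, *Baf180* KD NT replicate 2, scr Cu replicate 2 or scr NT replicate 2, at values from -1.08 to -0.82.

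*Tgfb2* differed by -0.72 (edgeR adjusted p = 0.00615, SE 0.18) for the response to Zn of *Baf180* KD cells, a call kept when any single library was left out (-0.87 to -0.57). It differed by -0.71 (edgeR adjusted p = 0.0174, SE 0.18) for Cu in the same KD and by -0.57 (edgeR adjusted p = 0.0269, SE 0.19) for Zn in *Baf250a* KD cells. After the GC correction the 3 differences were -0.65 (edgeR adjusted p = 0.0181), -0.63 (edgeR adjusted p = 0.0430) and -0.51 (edgeR adjusted p = 0.0414). For Cu, the call was lost without *Baf180* KD Cu replicate 1, -0.69 (adjusted p = 0.0972), *Baf180* KD NT replicate 1, -0.55 (adjusted p = 0.0728), or scr NT replicate 2, -0.66 (adjusted p = 0.138). For Zn in *Baf250a* KD cells it was -0.47 (adjusted p = 0.0565) without the shallow library, and the call was also lost without *Baf250a* KD NT replicate 2, scr NT replicate 2, scr Zn replicate 1 or scr Zn replicate 2, at values from -0.61 to -0.52.

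The differences of *Tgfbr1* and *Smad7* were not called after the correction, and those of *Smad7* were lost in other settings too. For *Tgfbr1* the difference in the response to Zn was -0.82 (edgeR adjusted p = 0.0143, SE 0.24) in *Baf180* KD and -0.76 (edgeR adjusted p = 0.0309, SE 0.26) in *Baf250a* KD cells, and after the correction it was 0.02 (edgeR adjusted p = 1.00) and 0.17 (edgeR adjusted p = 0.482). The *Smad7* differences for Zn were 0.34 (edgeR adjusted p = 0.0434, SE 0.12), 0.40 (edgeR adjusted p = 0.0235, SE 0.13) and 0.47 (edgeR adjusted p = 0.0314, SE 0.13) in *Baf180*, *Baf250a* and *Brd9* KD cells, and -0.07, 0.00383 and 0.15 after the correction. Of 7 other settings, the *Smad7* difference was called in 1 for *Baf180* KD, 2 for *Baf250a* KD and 4 for *Brd9* KD cells. Each of these 5 calls was lost when any of 4 to 7 single libraries was left out, scr NT replicate 2 in every case. Without the shallow library, the differences in *Baf250a* KD cells were -0.71 (adjusted p = 0.0549) for *Tgfbr1* and 0.46, still called, for *Smad7*. Without scr NT replicate 2 the *Tgfbr1* differences were -0.62 (adjusted p = 0.121) and -0.55 (adjusted p = 0.174), and those of *Smad7* were 0.28 (adjusted p = 0.211), 0.34 (adjusted p = 0.116) and 0.41 (adjusted p = 0.229).

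**Figure D4:**
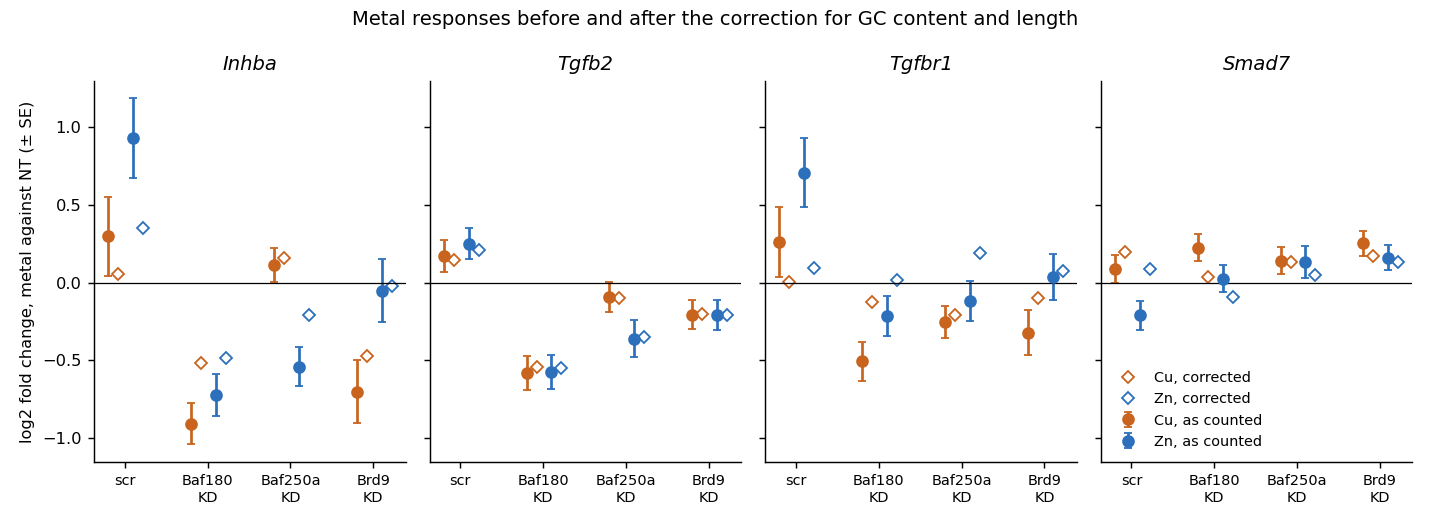
Log2 fold change of 4 genes with Cu or Zn against no metal in each cell line, as counted (filled circles, bars are ± SE from edgeR; 2 libraries a group) and after the GC correction (open diamonds, no error drawn). In scr cells with Zn, *Inhba* goes from 0.93 to 0.35 and *Tgfbr1* from 0.71 to 0.10.

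The direction of these differences followed the GC content of the transcripts. *Tgfbr1*, *Inhba* and *Tgfb2*, with the lower responses, have the 3 lowest values of the 9 (41.0%, 41.4% and 46.9%), and *Smad7*, with the higher responses, has the highest (56.9%). The quartiles of all genes tested in scr cells were 44.3% and 54.1%. Over the 9 genes, which share libraries, Spearman's rank correlation of GC content with the difference in the response to Zn was 0.90 for *Baf180* KD, 0.83 for *Baf250a* KD and 0.95 for *Brd9* KD, and after the correction it was 0.23, 0.08 and 0.40. For Cu it was 0.78, 0.82 and 0.92, and 0.28, 0.42 and 0.55 after it. The correction takes a trend with GC content out of each library, so a fall of these correlations after it is built in. These values are a description without a test. After the correction the 3 differences of *Tgfb2* and that of *Inhba* for Zn in *Baf180* KD cells were still called, and the others were not. Whether GC content had a part in those was not tested further.

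The 9 genes did not share 1 profile over the 24 libraries. *Tgfb1*, *Tgfbr3* and *Smad7* ran closely together (Pearson's r of log2 CPM of 0.93 for *Tgfb1* and *Tgfbr3* and 0.92 for *Tgfbr3* and *Smad7*), as did *Tgfb3*, *Tgfbr2* and *Smad3* (0.94 for *Tgfb3* and *Tgfbr2* and 0.91 for *Tgfbr2* and *Smad3*). *Inhba* ran closest to *Tgfb2* (0.67) and opposite to *Tgfb1* (-0.48). Among 10412 other genes, the profiles most like *Tgfbr3* were those of *Ank* (0.99) and *Col6a3* (0.99), those most like *Inhba* were *Postn* (0.93) and *Ankib1* (0.93), and those most like *Tgfb3* were *Sulf1* (0.99) and *Mxd4* (0.98). *Tgfb1* was most like *Adgre5* (0.98) and *Gata2* (0.97), *Tgfb2* like *Tgoln1* (0.97) and *Atxn1* (0.95), and *Tgfbr1* like *Slc4a7* (0.96) and *Eml4* (0.94). *Tgfbr2* was most like *Mxra8* (0.98) and *Trabd2b* (0.98), *Smad3* like *Ehd3* (0.96) and *Sgca* (0.96), and *Smad7* like *Jph2* (0.98) and *Kcnf1* (0.98). The libraries fall into the 4 cell lines, so these correlations mostly order the lines and are given without a test. Without the shallow library none of the correlations with these genes moved by more than 0.0139, and those of *Inhba* with *Tgfb2* and *Tgfb1* were 0.68 and -0.47.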

How the data were processed

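RNA was sequenced from 24 libraries of 4 cell lines under 3 treatments, with 2 replicates a group. Groups were taken from the sample titles, because the treatment field contradicted them in part. As the study's methods state, the authors aligned reads to mm10 with STAR, kept uniquely mapped pairs and counted them per gene with featureCounts on the sense of the kit; they deposited whole-number counts per gene symbol. Their comparison tables (log2 fold changes and p-values) were not used.

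Counts were tested with edgeR 4.0.16 in R 4.3.3 (filterByExpr, TMM scaling, quasi-likelihood test), with Benjamini-Hochberg adjustment over all genes tested and a threshold of 0.05. A KD was compared with scr in the 4 libraries of a treatment, a response to metal was tested in the 6 libraries of a line, and differences between responses in all 24. SE is the log2 fold change divided by the root of the F statistic. CPM were scaled by TMM over the 24 libraries, and gene positions, exon lengths and GC content came from GENCODE M21 (GRCm38).

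The alternatives were DESeq2 1.42.0, RLE size factors, other filters on low counts, other sets of libraries in the fit, a replicate block, an offset per library that follows the GC content and length of transcripts (splines of 5 degrees of freedom), and leaving out each library. Leaving out the shallow library where it only shares the fit, and a crossed replicate block, were added after seeing the data. Fits of 3 libraries leave 1 degree of freedom and assume that the lone library varies like the other group, so that very small p-values from them are given as calls. The fit of *Baf250a* KD against scr with Zn holds the shallow library and gave far smaller p-values at like SEs. Its p-values are not to be compared with those of other comparisons.

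The 9 genes and the gene lists were chosen with earlier results of these data known. Among the other pathway genes, those named were called, had a mean of at least 5 CPM over the groups compared and did not overlap between them, and the 2 highest and 2 lowest log2 fold changes of each untreated KD (1 and 1 for each response to metal) were taken; values of a gene so named may be given in other comparisons too. The 2 genes nearest to each member were those with the highest Pearson correlation of log2 CPM.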

Additional observations from a re-analysis of the deposited data

Results flagged for a closer look

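For 4 of the 9 genes the response to metal was unlike that of scr cells in at least 1 KD, by the test of the difference itself (edgeR, adjusted p under 0.05), 11 differences in all. Each is a log2 fold change in the KD minus that in scr. With Cu and *Baf180* KD, *Tgfb2* differed by -0.71 and *Inhba* by -1.15. With Zn and *Baf180* KD, *Tgfb2* differed by -0.72, *Tgfbr1* by -0.82, *Smad7* by 0.34 and *Inhba* by -1.55. With Zn and *Baf250a* KD, *Tgfb2* differed by -0.57, *Tgfbr1* by -0.76, *Smad7* by 0.40 and *Inhba* by -1.43. With Zn and *Brd9* KD, *Smad7* differed by 0.47. The *Smad7* differences in *Baf180* and *Baf250a* KD cells were called in 1 and 2 of 7 other processing settings. After the GC correction only the differences of *Tgfb2*, and that of *Inhba* for Zn in *Baf180* KD cells, were still called. Without the correction, the *Tgfb2* call for Zn in *Baf250a* KD cells was lost without the shallow library, at -0.47. The *Tgfb2* call for Cu was lost without *Baf180* KD Cu replicate 1, *Baf180* KD NT replicate 1 or scr NT replicate 2. Those of *Tgfbr1* became 0.02 in *Baf180* KD and 0.17 in *Baf250a* KD cells. Without scr NT replicate 2 fewer of the 9 genes were called in each of these comparisons.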

How the results depend on the processing

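Over single genes, other processing settings gave 1467 values, of which 34 lost and 40 gained a call. The sign changed in 58 of them, 33 under the GC correction, of which 54 were values not called in the main test. The 4 called values that reversed did so under the GC correction: *Inhba* in untreated *Baf250a* KD (-0.10), *Tgfbr1* (0.0198) and *Smad7* (-0.0712) in the response to Zn of *Baf180* KD minus scr, and *Tgfbr1* (0.17) in that of *Baf250a* KD minus scr. Leaving out 1 library gave 1098 values, of which 77 lost and 22 gained a call, and 73 changed sign, none of them a called value.

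The number of the 9 genes called moved by over 1.5 times as follows. With the GC correction it was 5 in *Brd9* KD against scr with Cu (3 in the main test), 0 in scr with Zn (1), 1 in *Brd9* KD with Cu (0), 1 for Cu in *Baf180* KD minus scr (2), 2 and 1 for Zn in *Baf180* and *Baf250a* KD minus scr (4 and 4) and 0 for Zn in *Brd9* KD minus scr (1). With all genes of at least 1 count it was 2 in scr with Zn, 2 in *Baf180* KD with Zn, 1 in *Brd9* KD with Cu, and 1 for Cu and 2 for Zn in *Brd9* KD minus scr. With 24 libraries it was 6 in *Brd9* KD against scr with Cu, 3 in scr with Zn and 0 in *Baf250a* KD with Zn (2), and with 12 libraries 0 for Zn in *Brd9* KD minus scr. DESeq2 gave 2 in *Baf180* KD with Zn and 1 in *Baf250a* KD with Zn, where a mean normalized count of at least 1 also gave 1. The cause of these moves was not tested.

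Leaving out 1 library gave 2 to 4 genes in untreated *Brd9* KD against scr, 2 to 7 with Cu, 0 to 1 in scr with Zn, 0 to 4 in *Baf180* KD with Cu, 1 to 2 in *Baf250a* KD with Zn, 0 to 3 and 0 to 1 for Cu in *Baf180* and *Brd9* KD minus scr, and 2 to 4, 1 to 4 and 0 to 3 for Zn in *Baf180*, *Baf250a* and *Brd9* KD minus scr.

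Deviations of same-numbered libraries correlated at -0.18 to 0.39 over pairs of groups, and nothing in the labels says that a number marks a shared batch, so the numbers were not taken as pairs. With a replicate block, 5 genes were called in untreated *Baf180* KD (6 without), 4 in *Brd9* KD (4), 0 in scr with Zn, 2 in *Baf180* KD with Zn and 3 for Cu in *Baf180* KD minus scr (2). Against scr with Zn it was 7 in *Baf180* KD (7), 7 in *Baf250a* KD (9) and 7 in *Brd9* KD (5), where the correlations were 0.18, -0.079 and 0.21, and all genes called went from 7547 to 8606 in *Baf180* KD and from 3483 to 5566 in *Brd9* KD. The other counts of the 9 genes were the same with the block. In the untreated comparisons the correlations were -0.13 and -0.14 for *Baf180* and *Brd9* KD. With the numbers crossed, 8 and 5 were called in untreated *Baf180* and *Brd9* KD, and 8018 and 7415 of all genes against 5237 and 3566 with the block as numbered.

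Depth limits *Baf250a* KD with Zn most, where replicate 2 holds 17 to 233 counts per gene. With 2 libraries a group, differences that missed the threshold are not shown to be absent.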
